A study of Mus musculus with 38 samples.

Results

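The sites described here are 26460 regions that were accessible in mouse embryonic fibroblasts (MEFs) and were called as ATAC-seq peaks again in every library made after SALL4 had been introduced. They were chosen by their peak calls: a MEF peak was a member when its score was at least 100 and it overlapped, by at least 1 bp, a peak in each of the 8 lists of days 1, 5, 9 and 11. They are 26460 of the 75284 MEF peaks with a score of at least 100, and of 125470 MEF peaks in all. The score is 10 times the negative log10 of the peak caller's p-value, so a higher score is a stronger peak. The value 3100 recurs in the ATAC-seq lists, at 322 MEF peaks and 3 to 28 peaks of each other list, and only 68, 1 and 9 peaks of the lists of MEFs and of days 5 and 11 with SALL4-WT stand above it. It is taken here as a fixed value the caller wrote at the top of the scale, so peaks at 3100 cannot be ranked against each other or read as equally strong.

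The study asked how SALL4 moves fibroblasts towards pluripotency or towards primitive endoderm (PrE). The MEFs came from E13.5 embryos. They received, by retrovirus, either full-length SALL4 (SALL4-WT) or SALL4 without its 12 N-terminal residues (SALL4-delN12), the stretch through which SALL4 binds the NuRD co-repressor complex, as the only factor, and both kinds of cells were kept in iCD3 medium without BMP4. There are 9 ATAC-seq libraries (MEFs and both forms at 4 days), 4 Cut&Tag peak lists of day 6 (SALL4 and H3K27ac in both forms) and 8 RNA-seq libraries of both forms at the ATAC-seq days. Each condition has 1 library or 1 merged peak list, so single conditions could not be tested against each other. A model of both forms with the days as replicates was not run, and the values below are a description. The cultures were mixed populations, and a peak called in a list says that enough cells of that culture were accessible, not that all were.

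ATAC-seq marks DNA that a transposase can reach. Promoters of genes that most cells use are usually accessible across cell types, and many of them lie in CpG islands and carry sites for general activators such as ETS factors, NRF1, YY1, NF-Y and SP proteins. Away from promoters, accessible sites are often bound by CTCF, which with cohesin shapes chromosome loops, or by activators such as AP-1, and they differ more between cell types. H3K27ac is a histone mark of active promoters and enhancers, and SALL4 is a zinc finger factor of early embryos that recognises A/T-rich DNA.

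The fibroblast label was checked against marker genes: 14 of 14 fibroblast markers (among them Col1a1, Col1a2, Fn1, Vim and Twist1) had a MEF peak of at least 100 within 2 kb of a start site, and 10 of the 14 had a member there. Of 4 blood and 4 muscle markers 0 had such a peak, of 4 liver markers 1, of 4 neuron markers 2 and of 8 PrE markers 7, so such a peak alone does not mark a fibroblast gene. All 14 fibroblast markers stood at 1 FPKM or more in all 8 RNA-seq libraries, and Sall4 mRNA, the delivered factor, stood between 290.3 FPKM (SALL4-WT at day 11) and 970.8 FPKM (SALL4-delN12 at day 9). The lists held 78517 to 98422 peaks in the SALL4 libraries. The number of reads behind each list is unknown, and scores of different lists were not brought to a common depth.

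Of the members, 9 are shown by their sequence, because each carries a motif that the comparison of members with other MEF peaks turns on. Each line gives the 200 bp around the peak centre, read 5′ to 3′ on the plus strand of mm10 (RefSeq's GRCm38 assembly), with the matched letters in capitals and all other bases in lower case. For the motifs with the largest ratio of shares, the member shown is the one whose lowest score over the 9 lists is highest among the members considered with no annotated exon in the window. The windows for NFY, CTCF and AP-1 were picked in the same way, but these motifs were chosen after their values had been seen. The first lines are members at promoters:
Nr2c2 promoter, YY1, chr6:92092026-92092225, plus strand: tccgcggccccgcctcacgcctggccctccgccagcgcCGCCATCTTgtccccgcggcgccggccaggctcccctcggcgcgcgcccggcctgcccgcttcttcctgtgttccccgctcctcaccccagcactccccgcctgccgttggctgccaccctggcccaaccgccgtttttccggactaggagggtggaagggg
Snd1 promoter, ETS, chr6:28480015-28480214, plus strand: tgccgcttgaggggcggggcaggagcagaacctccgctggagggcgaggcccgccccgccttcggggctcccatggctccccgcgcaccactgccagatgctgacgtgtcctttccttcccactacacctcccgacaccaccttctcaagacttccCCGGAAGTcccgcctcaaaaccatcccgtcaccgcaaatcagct
Papss1 promoter, NRF1, chr3:131564446-131564645, plus strand: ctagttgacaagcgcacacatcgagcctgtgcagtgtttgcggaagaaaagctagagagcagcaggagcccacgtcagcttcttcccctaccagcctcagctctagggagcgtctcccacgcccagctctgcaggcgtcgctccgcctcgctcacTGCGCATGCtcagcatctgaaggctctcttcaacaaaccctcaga
Rab40c promoter, NFY, chr17:25920077-25920276, plus strand: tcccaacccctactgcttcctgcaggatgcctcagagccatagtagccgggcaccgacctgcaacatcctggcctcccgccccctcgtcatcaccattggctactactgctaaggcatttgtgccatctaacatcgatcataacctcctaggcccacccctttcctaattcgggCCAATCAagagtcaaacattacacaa

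The Nr2c2 window, inside the gene, holds the YY1 letters in their reverse complement. Snd1 encodes a staphylococcal nuclease domain protein, Papss1 an enzyme that makes the sulfate donor PAPS, Nr2c2 a nuclear receptor and Rab40c a small GTPase. The peak around the ETS window, which also holds a GC box near its 5′ end, had the fixed top score of 3100 in MEFs. At days 1, 5, 9 and 11 it had 1131, 2156, 1665 and 2139 with SALL4-WT and 1452, 1403, 1775 and 1671 with SALL4-delN12. The peak around the NRF1 window had a score of 3100 in MEFs and between 1366 (SALL4-delN12 at day 11) and 2252 (SALL4-WT at day 5) in the SALL4 lists. All of these promoter peaks overlapped a peak in each of the 4 Cut&Tag lists.

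The next lines are members more than 2 kb from any annotated start site:
Phf19 intron, GC box, chr2:34905003-34905202, plus strand: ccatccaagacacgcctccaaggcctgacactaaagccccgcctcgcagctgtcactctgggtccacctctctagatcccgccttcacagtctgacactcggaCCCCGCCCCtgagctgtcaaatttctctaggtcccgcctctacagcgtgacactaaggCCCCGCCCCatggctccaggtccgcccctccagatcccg
intergenic, CRE, chr6:128764091-128764290, plus strand: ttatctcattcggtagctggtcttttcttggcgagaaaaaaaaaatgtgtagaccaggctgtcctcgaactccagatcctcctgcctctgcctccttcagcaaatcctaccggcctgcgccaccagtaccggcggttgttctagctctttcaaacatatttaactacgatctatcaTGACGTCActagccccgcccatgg
intergenic near Igf2bp3, BANP, chr6:49217779-49217978, plus strand: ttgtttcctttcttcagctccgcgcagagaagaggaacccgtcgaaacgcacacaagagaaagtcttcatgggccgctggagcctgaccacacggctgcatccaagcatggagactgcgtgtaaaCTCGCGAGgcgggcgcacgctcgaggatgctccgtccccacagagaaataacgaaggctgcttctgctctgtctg
intergenic, CTCF, chr7:73618376-73618575, plus strand: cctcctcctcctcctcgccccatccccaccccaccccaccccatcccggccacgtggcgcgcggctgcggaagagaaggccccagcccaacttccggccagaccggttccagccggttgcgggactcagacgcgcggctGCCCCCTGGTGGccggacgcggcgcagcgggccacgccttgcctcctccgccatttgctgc
Spaca6 intron, AP-1, chr17:17837847-17838046, plus strand: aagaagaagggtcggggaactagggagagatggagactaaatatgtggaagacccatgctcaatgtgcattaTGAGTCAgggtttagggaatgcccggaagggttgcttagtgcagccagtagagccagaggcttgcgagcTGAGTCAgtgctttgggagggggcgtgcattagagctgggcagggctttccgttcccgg

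Distances here run from the nearer edge of the whole peak to the nearest annotated start site. The GC box window lies in an intron of Phf19, in a peak 7.34 kb from a start site, and holds the GC box letters in 2 places. The CRE window is in an intergenic peak at 19.1 kb. The BANP window is in a peak 2.50 kb from a start site of Igf2bp3. The CTCF window, which also holds the ETS letters, is in an intergenic peak at 8.37 kb, and the AP-1 window, in an intron of Spaca6, holds the AP-1 letters in 2 places. The peak around the AP-1 window had a score of 3100 in MEFs. In the SALL4 lists, in the order of the days, it had 1250, 1931, 1543 and 1648 with SALL4-WT and 1462, 1017, 1528 and 1362 with SALL4-delN12. The peak around the BANP window was the weakest of these, with 1538 in MEFs and 369.2 to 671.4 in the SALL4 lists, and, like the peak around the CRE window, it overlapped no H3K27ac peak of SALL4-WT cells. The other 3 distal peaks shown overlapped a peak in each of the 4 Cut&Tag lists.

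Among the strong MEF peaks, being open throughout was the most frequent outcome and being open in no SALL4 list was the next. Of the 75284 MEF peaks with a score of at least 100, 26460 (35.1%) were open in all 8 lists, 11542 (15.3%) in none, and between 4316 and 7790 in each number of lists from 1 to 7. Of the 7790 peaks that missed the rule by a single list, 3071 (39.4%) lacked a peak only at day 1 with SALL4-WT, 1544 (19.8%) only at day 11 with SALL4-delN12 and 1206 (15.5%) only at day 1 with SALL4-delN12. The lists of day 1 with SALL4-WT and day 11 with SALL4-delN12 also overlapped the fewest strong MEF peaks in all (52.6% and 59.0%), while that of day 1 with SALL4-delN12 overlapped 64.5%, within the 61.6% to 65.1% of the remaining lists. At the score threshold, the weakest member, in an intron of Hunk, had a MEF score of 100.03, and the strongest peak left out with a peak in all 8 lists, an intergenic peak nearest to Syde2, had 99.93. In all, 1740 peaks were open in all 8 lists and had a MEF score under 100.

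**Figure D1:**
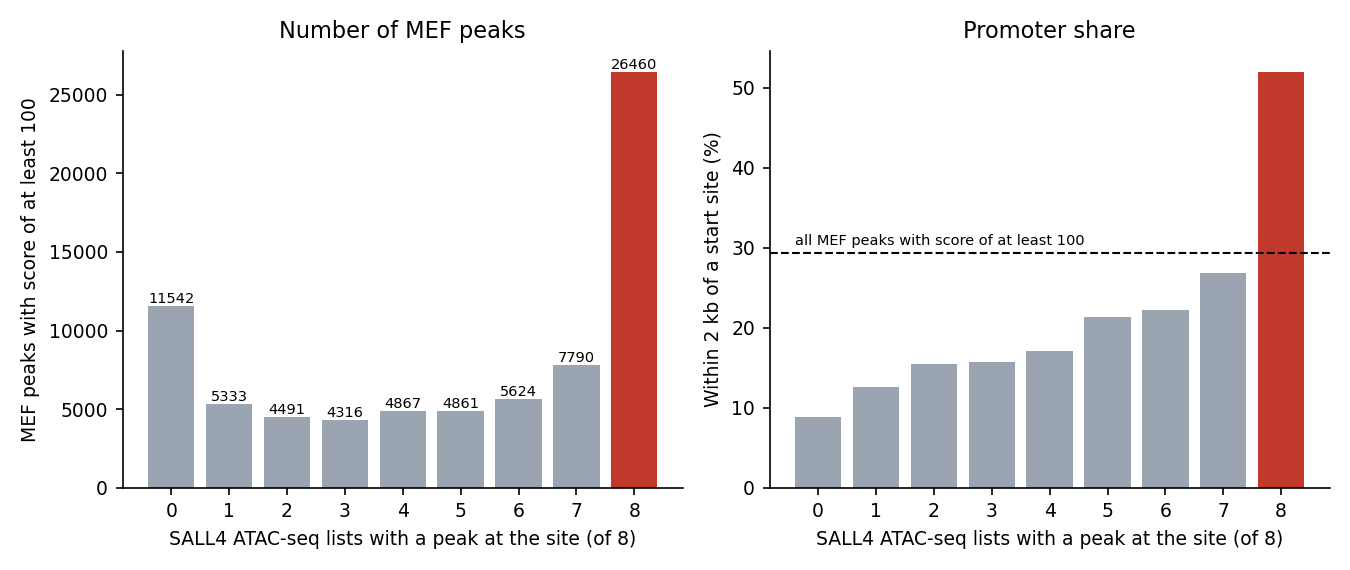
Number of MEF peaks with a score of at least 100 (left) and the percentage of them within 2 kb of an annotated start site (right), by the number of SALL4 ATAC-seq lists in which the site had a peak. The 26460 members (red) have a peak in all 8 lists, and their promoter share of 52.0% stands above the shares of 8.80% to 26.8% in the other bars and the 29.3% of all these MEF peaks (dashed line).

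The members were rich in promoters. Of the 26460 members, 13770 (52.0%, 95% Wilson interval 51.4 to 52.6) lay within 2 kb of an annotated transcription start site, beside 16.9% of the 48824 non-members and 29.3% of all 75284 peaks. The interval covers counting error only, since neighbouring sites are not independent. The share grew with the number of lists, from 8.80% of the peaks open in none to 26.8% of those open in 7 and 52.0% of the members. The start site lay within the peak itself in 39.7% of members and 5.16% of non-members. Read the other way, 62.5% of the strong MEF peaks at promoters were members and 23.8% of those elsewhere. The remaining 12690 members are called distal here. Of the distal members, 51.5% had their centre in an intron, 44.6% between genes and 3.92% in an exon. The members were spread over the genome, with 30.8% (chromosome 18) to 41.3% (chromosome 7) of the strong MEF peaks of each autosome and 32.0% of those of the X chromosome being members.

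Members were stronger and wider peaks in MEFs than the rest, which the rule favours, so these values are only a description. The median MEF score was 595.6 in members and 184.4 in non-members, and the median width 510.0 and 281.0 bp. Wider peaks overlap other lists more readily, and so SALL4, H3K27ac and some motif shares are given below also within some classes of score or width. Within MEF scores of 100 to 200, 18.9% of promoter peaks and 9.20% of distal peaks were members, and at scores of 800 and more these shares were 97.5% and 74.2%.

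The promoter members had higher median scores than the distal members in all 9 ATAC-seq lists, that of MEFs included. The median score of promoter members was 804.4 in MEFs. At days 1, 5, 9 and 11 it was 313.4, 642.0, 494.9 and 671.8 with SALL4-WT and 368.1, 337.4, 485.9 and 437.8 with SALL4-delN12. The median of distal members was 445.6 in MEFs, 168.2, 286.7, 246.5 and 250.2 with SALL4-WT, and 239.6, 197.7, 263.4 and 180.2 with SALL4-delN12. The rule asks for a score of at least 100 in MEFs and only for a called peak in the other lists. Because of this, and because the lists may differ in depth, members were also ranked within each list. On that scale, where 50 is the middle member, the median promoter member moved from 62.5 in MEFs to 70.2 and 69.3 at day 11 with SALL4-WT and SALL4-delN12, and the median distal member from 38.2 to 32.0 and 33.0. In between, the promoter median was 63.4, 68.6 and 67.2 at days 1, 5 and 9 with SALL4-WT and 60.7, 63.9 and 65.7 with SALL4-delN12. The promoter members thus stood higher among the members than in MEFs in all SALL4 lists except that of day 1 with SALL4-delN12, where they stood lower. Over the 26460 members, the scores of 2 lists were least alike for MEFs and day 1 with SALL4-WT (Spearman's rho 0.56) and most alike for days 5 and 9 with SALL4-WT (rho 0.89). Every pair shares the selection on being called in both.

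**Figure D2:**
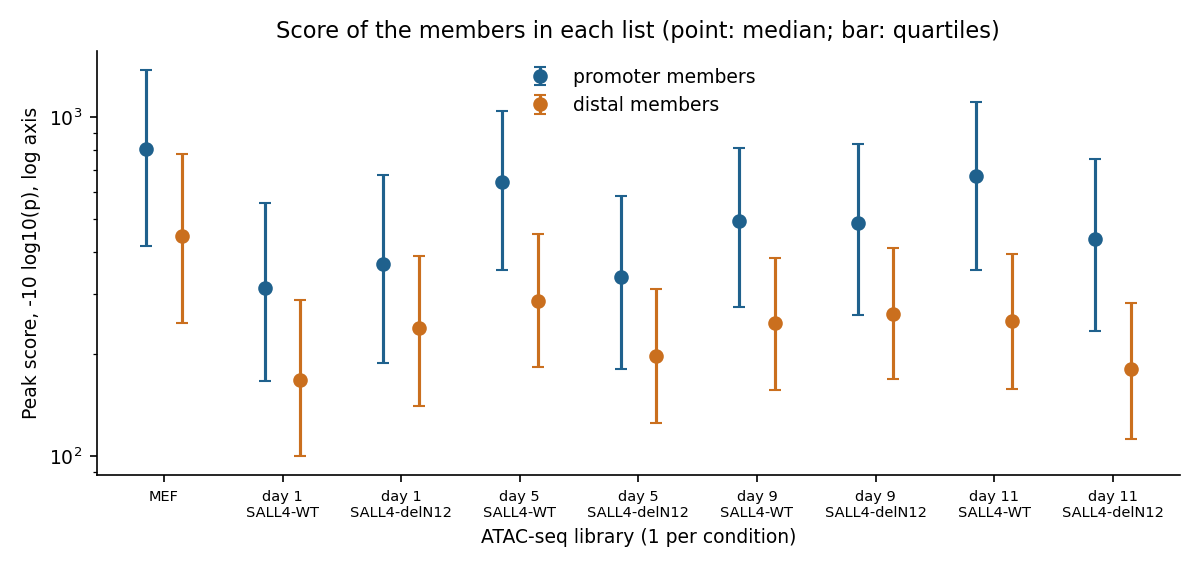
Peak score of the members (log axis) in each of the 9 ATAC-seq lists, 1 library each, for 13770 promoter and 12690 distal members. Points are medians over members and bars run from the first to the last quartile mark. Promoter members lie above distal members in every list. All lists of SALL4 cells lie below the MEF list, but the rule asks for a score of at least 100 only in MEFs. The lists may also differ in depth, so this difference does not show a loss of accessibility.

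The members with the highest lowest score over the 9 lists lay on an unplaced contig, at non-coding genes and at the promoters of Khsrp and Sp1, among other places. An 808-bp peak on the unplaced contig JH584304 and a 5843-bp peak at chr17:39842992-39848834, over the annotated lincRNA Gm26917, had the score 3100 in all 9 lists. A 146-bp peak at chr1:24612647-24612792, at the pseudogene Gm10222, had 2943 at day 1 with SALL4-WT and 3100 in the other 8 lists. How many other places in the genome match these 3 peaks was not examined, so their scores may not be those of single sites. Next came the promoter of Khsrp, an RNA-binding splicing regulator, with scores from 2335 (day 1 with SALL4-WT) to 3100. The promoter of Sp1, which encodes the founding GC box factor, had the fixed top score of 3100 in MEFs and at day 11 with SALL4-WT. It had 2011, 2894 and 2328 at days 1, 5 and 9 with SALL4-WT, and 2522, 2081, 2560 and 2396 at the 4 days with SALL4-delN12. A peak at the antisense gene Gm20512 on chromosome 7 closed the first 5 at promoters. Away from promoters, the strongest members after the contig were an intergenic peak at chr8:69716318-69717385, 5.59 kb from Zfp869 (scores 1741 to 3100), an intergenic peak at chr15:85634137-85635218 (1604 to 3100), the Phf19 intron peak shown above at chr2:34904679-34905526 (1292 to 3100) and an intergenic peak at chrX:75673789-75674682 (1215 to 2880). All of the strongest members overlapped a peak in each of the 4 Cut&Tag lists, except the one at Gm10222, which overlapped a SALL4 peak of SALL4-WT cells and none of the other 3 lists.

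The promoter members were richer in CpG dinucleotides than other promoter peaks. In the 200 bp around the centre, the median GC content was 64.0% in promoter members and 55.0% in promoter non-members, and the ratio of observed to predicted CpG was 0.78 and 0.41. A window with at least 50% GC and a ratio of at least 0.6 is called CpG-rich here, and 70.0% of promoter members and 30.2% of promoter non-members were. Start sites of protein-coding genes on both strands lay within 500 bp of 8.62% of promoter members and 1.60% of promoter non-members. The distal members were closer in composition to other distal peaks, with a median GC content of 51.0% against 47.0%, and 6.55% of them were CpG-rich against 1.91%. Windows made up mostly of annotated repeats were few, 0.559% of promoter and 2.11% of distal members, below the 2.46% and 3.83% of non-members.

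A set of 21 motifs was searched in these windows on both strands as exact letters, and no motif contains another. The motifs of general promoter factors were NRF1 (TGCGCATGC), ETS (CCGGAAGT), NFY (CCAATCA), YY1 (AAGATGGCG), the GC box of SP factors (GGGGCGGGG), BANP (CTCGCGAG), ZNF143 (CCCAGNATG), RFX (GTTGCCATG), CRE (TGACGTCA) and the USF E-box (GTCACGTG). The others were CTCF, searched with a longer degenerate pattern, AP-1 (TGANTCA), TEAD (GGAATGT), RUNX (AACCACA), C/EBP (TTGCNNAA), KLF (GGGTGTGG), the site of GATA factors (AGATAAG), SOX (CCATTGT), FOX (TGTTTAC), OCT (ATGCAAAT) and the A/T-rich letters (AATATT). A match describes the letters and does not show that a factor was bound.

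At promoters, 9 of the 21 motifs were more frequent in members than in non-members, and all 9 belong to the general promoter factors. YY1 letters stood in 1.86% of promoter members (256 of 13770) and 0.254% of promoter non-members (21 of 8265), beside 1.26% of all strong MEF peaks at promoters. ETS letters stood in 3.97% and 0.605% (2.70% of all), NRF1 letters in 1.47% and 0.29% (1.03% of all) and BANP letters in 0.973% and 0.29% (0.717% of all). The most common of these motifs, the GC box, stood in 11.8% of members and 5.53% of non-members (9.45% of all), and NFY in 5.56% and 3.13% (4.65% of all). The USF E-box stood in 2.36% and 0.786%, CRE in 1.86% and 0.75%, and ZNF143 differed little, at 1.47% and 1.19%. RFX, the remaining general factor, stood in 0.508% and 0.520%. Counted from the motif, 256 of 277 strong MEF promoter peaks with the YY1 letters (92.4%) were members, 546 of 596 with ETS (91.6%) and 202 of 226 with NRF1 (89.4%), beside 62.5% of strong MEF promoter peaks in all.

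Several other motifs ran the other way at promoters. AP-1 letters, bound by FOS and JUN proteins, stood in 7.07% of promoter members and 15.1% of promoter non-members (10.1% of all), TEAD letters in 2.24% and 5.41%, RUNX letters in 2.59% and 4.90% and the A/T-rich letters in 0.893% and 3.19%. CTCF letters stood in 160 of 13770 promoter members and 205 of 8265 promoter non-members (2.48%), but not less often in members of the middle score classes, with 2.68% and 2.63% at 200 to 400 and 1.43% and 0.991% at 400 to 800. The higher GC content of the members' windows goes with these differences, and its part was not tested. The ETS and YY1 differences were present in each class of MEF score. At scores of 100 to 200, ETS letters stood in 2.49% of 1086 promoter members and 0.471% of 4675 promoter non-members, and YY1 letters in 1.93% and 0.278%. The AP-1 difference was not present there, with 15.5% of members and 14.7% of non-members, and it was present in the 3 higher classes.

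Distal members differed less from other distal peaks. AP-1 letters were by far the most common, in 39.9% of distal members and 33.5% of distal non-members (35.0% of all strong distal MEF peaks), and the direction was the same in each score class. At scores of 100 to 200 the shares were 44.3% and 31.7%, at 200 to 400 they were 40.3% and 35.4%, at 400 to 800 they were 39.4% and 37.0%, and from 800 they were 36.8% and 32.9%. GC box letters stood in 1.68% of distal members and 0.767% of distal non-members, and CRE letters in 0.615% and 0.311%. BANP letters had the largest ratio but stood in only 8 distal members and 4 distal non-members. TEAD letters, at 7.65% against 10.1%, OCT letters, at 0.851% against 1.18%, and the A/T-rich letters, at 2.83% against 6.75%, were less frequent in members. Of the 3097 strong distal MEF peaks with the A/T-rich letters, 359 (11.6%) were members, the lowest share of the 21 motifs, beside 23.8% of strong distal MEF peaks in all. CTCF letters were alike over all distal peaks (4.23% of members and 4.11% of non-members) but not within classes of score. At MEF scores of 400 to 800 they stood in 4.27% of distal members and 0.714% of distal non-members, at 200 to 400 in 6.97% and 4.04%, and at 100 to 200 in 4.13% and 5.10%. All of these shares are of the 200-bp windows, and in the central 50 bp CTCF letters stood in 1.64% of distal members and 2.17% of distal non-members.

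**Figure D3:**
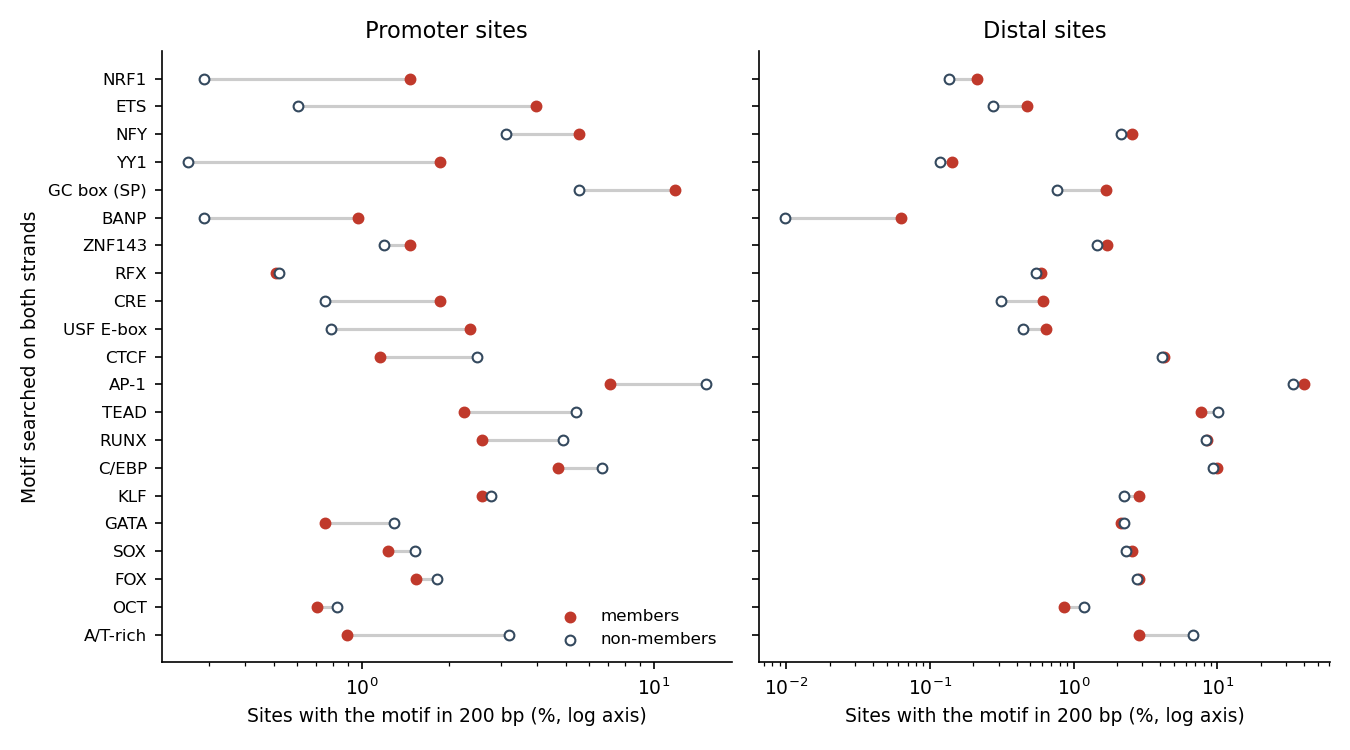
Percentage of sites with each of the 21 motifs in the 200 bp around the peak centre (log axis), for members (red) and the other MEF peaks with a score of at least 100 (open points), at promoters (left, 13770 and 8265 sites) and elsewhere (right). At promoters YY1, ETS and NRF1 letters are more frequent in members and AP-1, TEAD and A/T-rich letters less frequent, and for most motifs away from promoters the points lie closer together.

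Most members overlapped a SALL4 peak, and they did so more often in SALL4-WT than in SALL4-delN12 cells, whereas non-members did the reverse away from promoters. Of the 26460 members, 84.9% (95% Wilson interval 84.5 to 85.4) overlapped a SALL4 Cut&Tag peak of SALL4-WT cells, beside 34.4% of non-members and 52.2% of all strong MEF peaks. For SALL4-delN12 the share was 69.9% (69.3 to 70.4) of members, 46.3% of non-members and 54.6% of all. The SALL4 lists are close in size, with 69475 and 67310 peaks. In SALL4-WT cells the share grew with each further ATAC-seq list in which a site was open, from 7.36% of the peaks open in none to 65.4% of those open in 7. In SALL4-delN12 cells it went from 28.9% at none to between 46.9% and 52.2% at 1 to 6 lists and 56.5% at 7. Members with a SALL4 peak in both forms were 66.6%, members with one only in SALL4-WT cells 18.4% and members with one only in SALL4-delN12 cells 3.32%, where non-members had 21.7%, 12.7% and 24.6%. The accessibility lists of both forms enter the rule, and whether accessibility itself raises the Cut&Tag signal was not tested, since no list made without an antibody was analysed here.

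Among members, the lower share in SALL4-delN12 cells lay mainly at promoters. Of the promoter members, 84.9% had a SALL4 peak in SALL4-WT cells and 63.9% in SALL4-delN12 cells, and of the distal members 84.9% and 76.4%. Of the non-members, 39.2% and 34.1% had one at promoters and 33.5% and 48.7% elsewhere. Members had the higher share in all 4 classes of score at promoters and elsewhere, but in SALL4-delN12 cells the difference was small at MEF scores of 400 to 800, with 51.0% of promoter members and 46.7% of promoter non-members and 77.2% and 72.6% of distal ones. In SALL4-WT cells these shares were 78.2% and 44.8%, and 86.2% and 43.2%. At MEF scores of 100 to 200, 74.9% of promoter members and 38.2% of promoter non-members had a SALL4 peak of SALL4-WT cells, and 80.9% and 29.0% of distal ones. Among peaks of 300 to 500 bp, the values were 79.0% and 43.2% at promoters and 87.3% and 38.8% elsewhere. When only the centre base of a site had to lie in a peak, a choice made after the data had been seen, 84.4% of members and 33.5% of non-members did so in SALL4-WT cells and 68.9% and 45.7% in SALL4-delN12 cells. The median score of the SALL4 peaks at members was 181.5 in SALL4-WT and 173.4 in SALL4-delN12 cells. Of the 1000 highest-scoring SALL4 peaks, 824 in SALL4-WT and 600 in SALL4-delN12 cells overlapped a member, beside 29.6% and 25.2% of all SALL4 peaks of those lists.

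The motifs separated the distal members by SALL4 overlap. Distal members with AP-1 letters had a SALL4 peak in 94.2% (SALL4-WT) and 86.8% (SALL4-delN12) of 5065 cases, and those with TEAD letters in 93.1% and 88.8% of 970. Distal members with CTCF letters were the low end among motifs with over 100 sites, with 44.8% and 28.2% of 536, beside 84.9% and 76.4% of all distal members. Their median width of 273.0 bp and median MEF score of 338.8 were also below the 396.0 bp and 445.6 of all distal members. The distal members with A/T-rich letters, which resemble the DNA SALL4 recognises, had SALL4 peaks in 86.1% and 91.9% of 359 cases, so here the SALL4-delN12 share was the higher. At promoters the members with CTCF letters were again the low end, with 61.9% and 41.2% of 160. Those with FOX letters had 92.5% and 72.6% of 212, and those with AP-1 letters 91.4% and 78.0% of 974.

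**Figure D4:**
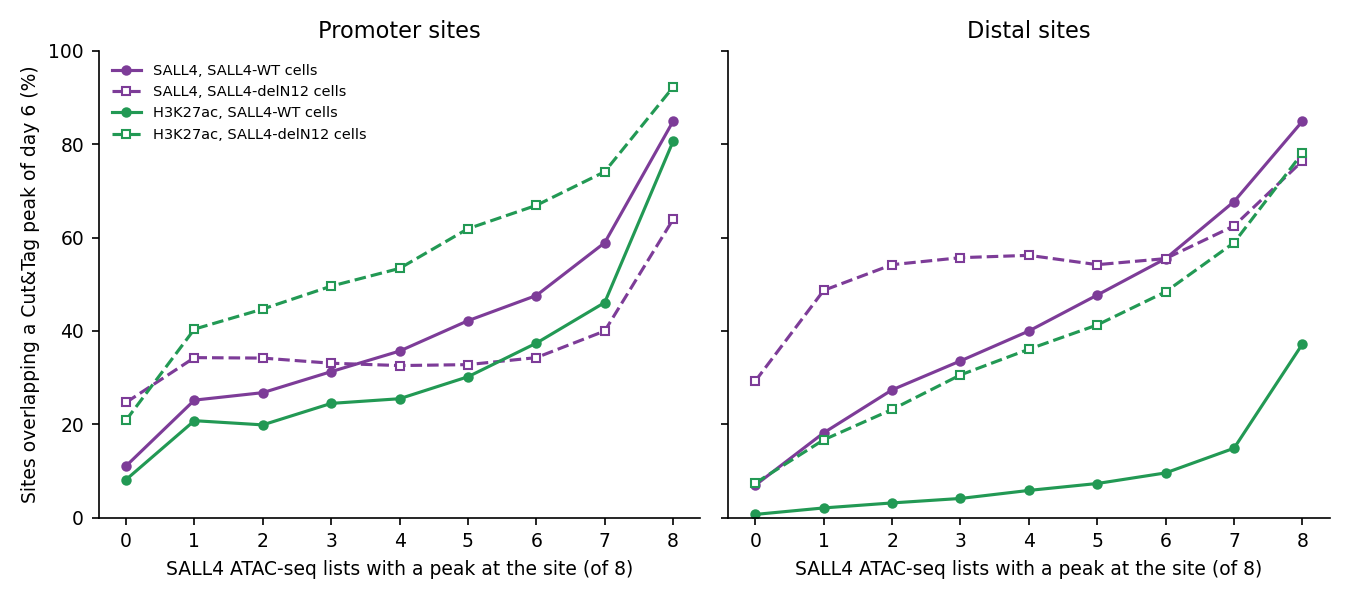
Percentage of MEF peaks with a score of at least 100 that overlap a Cut&Tag peak of day 6, by the number of SALL4 ATAC-seq lists in which the site is open, at promoters (left) and elsewhere (right). Purple lines are SALL4 and green lines H3K27ac, with filled points for SALL4-WT and open points for SALL4-delN12 cells. The members are the points at 8 lists, where 3 of the 4 shares at promoters are above 80% and SALL4 of SALL4-delN12 cells is at 63.9%.

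H3K27ac was more frequent at members than at other strong MEF peaks in both forms. In SALL4-WT cells 59.8% of members (95% Wilson interval 59.2 to 60.3), 9.67% of non-members and 27.3% of all strong MEF peaks overlapped an H3K27ac peak, and in SALL4-delN12 cells 85.4% (85.0 to 85.8), 34.1% and 52.2%. Promoter members were marked in 80.6% and 92.2% of cases and distal members in 37.2% and 78.1%. Of the 8265 promoter non-members 2481 were marked in SALL4-WT and 55.6% in SALL4-delN12 cells, and of the distal non-members 5.52% and 29.8%. Within MEF scores of 100 to 200, 67.6% of promoter members and 31.8% of promoter non-members were marked in SALL4-WT cells, and 30.7% and 5.24% of distal ones. In SALL4-delN12 cells these shares were 84.9% and 53.0%, and 67.6% and 23.8%. Among peaks of 300 to 500 bp, the SALL4-WT values were 72.4% and 32.7% at promoters and 34.8% and 6.60% elsewhere. Members had the higher share in every class of score and width in both forms. The list of SALL4-delN12 cells holds 45599 peaks and that of SALL4-WT cells 19841, so the forms cannot be compared on these shares. With the 19841 highest-scoring peaks of each form, 62.5% of members were marked in SALL4-delN12 and 59.8% in SALL4-WT cells. At promoters the values were then 78.4% in SALL4-delN12 and 80.6% in SALL4-WT cells, and at distal members 45.2% and 37.2%. Distal non-members were likewise marked more often in SALL4-delN12 cells, with 9.68% and 5.52%, and promoter non-members had 32.4% in SALL4-delN12 cells beside the 2481 of 8265 in SALL4-WT cells. Of all H3K27ac peaks, 70.1% in SALL4-WT and 44.6% in SALL4-delN12 cells overlapped a member, and of all SALL4 peaks 29.6% and 25.2%, in lists of unequal length (19841, 45599, 69475 and 67310 peaks).

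SALL4 and H3K27ac peaks were also counted on the same sites. In SALL4-WT cells 10048 of 13770 promoter members had both peaks and 1647 a SALL4 peak alone, while of 8265 promoter non-members 1665 (20.1%) had both and 1573 (19.0%) a SALL4 peak alone, so a SALL4 peak without H3K27ac was the less frequent at promoter members. Of 12690 distal members 4571 had both and 6207 (48.9%) a SALL4 peak alone, and of 40559 distal non-members 1980 (4.88%) and 11598 (28.6%). In SALL4-delN12 cells, with the longer H3K27ac list, 8457 promoter members (61.4%) had both peaks and 344 (2.50%) a SALL4 peak alone, and 2000 (24.2%) and 818 (9.90%) of the promoter non-members did. There 8498 distal members (67.0%) had both peaks and 1192 (9.39%) a SALL4 peak alone, against 9483 (23.4%) and 10289 (25.4%) of the distal non-members. A SALL4 peak alone was thus more frequent at distal members than at distal non-members in SALL4-WT cells and less frequent in SALL4-delN12 cells. This split depends on H3K27ac lists of unequal length and was not repeated with equal numbers, so the forms cannot be compared on it. All 4 Cut&Tag lists had a peak at 42.3% of members and 4.07% of non-members, and none of the 4 at 5.25% and 35.3%. The total shares of SALL4 and of H3K27ac were each higher at members, and whether both met more often than these shares give was not tested. Promoter members with YY1 letters were marked by H3K27ac in SALL4-WT cells in 94.1% of 256 cases and those with ETS letters in 91.9% of 546, beside 80.6% of all promoter members. Distal members with CTCF letters were marked in 12.3% of cases in SALL4-WT and 42.9% in SALL4-delN12 cells, beside 37.2% and 78.1% of all distal members.

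Most genes with a member at the promoter were expressed in all 8 SALL4 libraries. Of 20467 protein-coding genes with an FPKM value, 11134 (54.4%) had a member within 2 kb of a start site. Their median level, as the mean FPKM over the 8 SALL4 libraries, was 8.00, and 79.2% of them stood at 1 FPKM or more in all 8. The 2323 genes with only another strong MEF peak there had a median of 0.536 FPKM and 23.6% at 1 FPKM or more in all 8, and for the 6048 genes with no MEF peak at the promoter the share was 3.97%. The median over the genes with a member stayed between 7.40 FPKM (day 1 with SALL4-delN12) and 8.01 FPKM (day 11 with SALL4-WT).

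**Figure D5:**
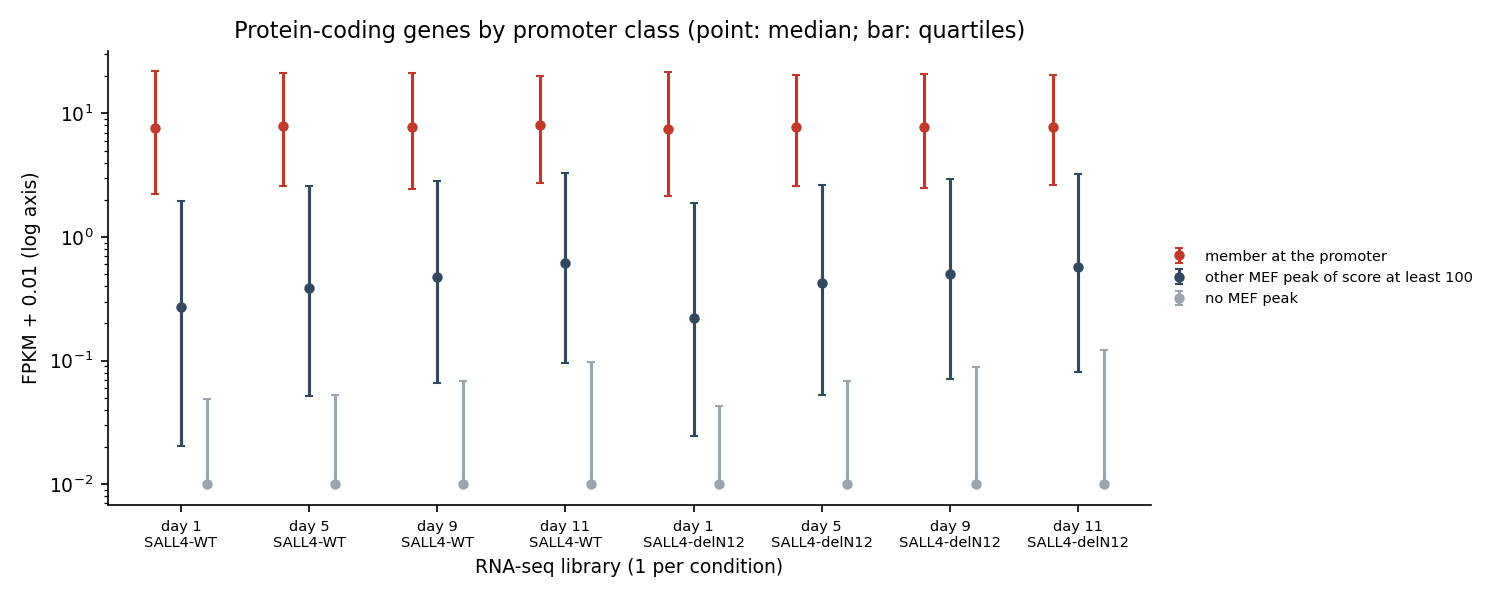
FPKM of protein-coding genes in each RNA-seq library (log axis, 0.01 added so that 0 can be drawn), for 11134 genes with a member at the promoter, 2323 with only another MEF peak of at least 100 there and 6048 with no MEF peak. The 962 genes with only weaker MEF peaks are not drawn. Points are medians and bars the quartiles. The genes with a member keep a median of 7.40 to 8.01 FPKM in all 8 libraries.

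Genes with a member at the promoter did not all keep a constant level. The range of log2(FPKM + 1) over the 8 libraries was at least 1 in 30.5% of the genes with a member, in 39.9% of those with only another strong MEF peak and in 26.0% of all genes tested. The median range was 0.74, 0.75 and 0.59 in the same order. Genes near 0 FPKM can range little on this scale, and they are frequent outside the genes with a member. Among genes with a mean of at least 5 FPKM over the 8 libraries, a limit chosen after the data had been seen, the range was at least 1 in 31.6% of 6898 genes with a member, 76.7% of 447 genes with only another strong MEF peak and 36.2% of all. A gene that is high in a single library can reach this mean through it, which raises such shares most where levels are low. Between the forms at day 11, 3.14% of the genes with a member were higher in SALL4-delN12 by at least 1 on the log2 scale and 3.73% lower. Over all genes the shares were 3.72% and 3.60%, so those of the genes with a member are near the background. All genes include many near 0 FPKM, which can differ little on this scale. Of the genes with only another strong MEF peak, 6.24% were higher and 7.79% lower.

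Most genes of the general machinery had a member at the promoter, beside 54.4% of all genes. These lists hold mostly expressed genes, and of all 7677 genes with a mean of at least 5 FPKM over the 8 SALL4 libraries 6898 had a member, so their counts are to be read against that share. All 20 housekeeping genes, all 75 genes of the mitochondrial ribosome, all 10 genes of CTCF and cohesin and all 18 genes listed as general promoter factors had one. So had 80 of 83 cytosolic ribosomal protein genes and 46 of 48 proteasome genes. The 5 exceptions are Rpl3l, Rpl10l, Rpl39l, Psma8 and Psmb11, of which Rpl39l was expressed, at 3.75 to 20.1 FPKM. Of 13 NuRD genes, 10 had a member, Mta1 and Mta3 had only a weaker MEF peak and Chd3 had none. The lists differed in how far their genes ranged. Beside the 30.5% of all genes with a member, log2(FPKM + 1) ranged by 1 or more in 43 of 80 ribosomal protein genes, 25 of 46 proteasome genes, 7 of 20 housekeeping genes and 23 of the 74 mitochondrial ribosome genes that had an FPKM value, all with a member. It did so in 0 of 10 CTCF and cohesin genes and 0 of 10 NuRD genes. The median range was 1.02 in the ribosomal protein genes and 1.07 in the proteasome genes with a member. Both medians are close to the limit of 1, so these counts depend on it. Rps18 stood at 57.7 FPKM at day 11 with SALL4-WT and between 426.2 and 806.0 FPKM in the other SALL4 libraries, so its range rests on a single library. Ctcf stood at 16.2, 16.1, 14.7 and 13.5 FPKM at days 1, 5, 9 and 11 with SALL4-WT and at 14.7, 15.2, 15.1 and 13.9 with SALL4-delN12. Yy1 stood at 31.4, 40.2, 45.1 and 39.6 FPKM with SALL4-WT and at 29.2, 31.8, 36.5 and 35.7 with SALL4-delN12. Among the factor genes 2 of 18 ranged by 1 or more, Elf1, an ETS factor, and Sp3. Of the AP-1 genes 9 of 10 had a member, all but Batf, and 5 of the 9 ranged by 1 or more. Fos stood at 26.0, 85.4, 65.7 and 74.0 FPKM with SALL4-WT and at 21.6, 32.9, 15.7 and 49.8 with SALL4-delN12, lower in SALL4-delN12 at each day. Atf3 was higher in SALL4-delN12 at each day, with 3.61, 2.26, 1.81 and 2.85 FPKM with SALL4-WT and 8.45, 5.84, 6.53 and 13.3 with SALL4-delN12.

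The genes with the highest mean FPKM among those with a member were Ftl1 (ferritin light chain), Eef1a1 (translation elongation), S100a6 (a calcium-binding protein), Rpl41 (a ribosomal protein) and Lgals1 (galectin-1). Eef1a1 stood between 4734 FPKM and 6893 FPKM over the 8 libraries, and Lgals1 between 1054 and 3519 FPKM.

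Some genes with a member at the promoter differed widely in level between the libraries. Whether the scores of their peaks changed along with these levels was not tested. The widest range among genes with a member belonged to Ccl8, a chemokine, whose MEF peak of 119.5 was near the threshold. It stood at 10.6, 67.7, 366.1 and 506.4 FPKM at days 1, 5, 9 and 11 with SALL4-WT and at 8.40, 158.7, 413.8 and 922.7 with SALL4-delN12, higher at each later day in both forms. Cited1, a transcriptional co-activator and one of the PrE genes of the study, stood at 0.888, 1.58, 1.52 and 3.79 FPKM with SALL4-WT and at 3.79, 16.4, 34.9 and 140.5 with SALL4-delN12. Cldn6, an epithelial tight junction protein, stood at 0.253, 0.790, 1.35 and 2.42 FPKM with SALL4-WT and at 0.445, 7.01, 12.9 and 75.7 with SALL4-delN12. Cxcl14, a chemokine, went from 1.64 to 65.8 FPKM between days 1 and 11 with SALL4-WT and from 23.1 to 188.4 with SALL4-delN12. Rps28, which has many processed copies in the genome that can share its reads, stood at 10.6 FPKM at day 5 with SALL4-delN12 and stood between 147.0 and 860.8 FPKM in the other 7 libraries, so its range is uncertain.

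At day 11 the largest rises in SALL4-delN12 among genes with a member were those of Cited1, Cldn6 and Lama1, by 4.88, 4.49 and 3.55 on the log2(FPKM + 1) scale. Lama1, a laminin chain of the PrE basement membrane, stood at 1.30, 1.65, 1.84 and 3.38 FPKM with SALL4-WT and at 1.31, 2.35, 19.0 and 50.2 with SALL4-delN12, while its promoter was open in MEFs (score 1037). The largest falls were those of Steap4, Prss23 and Fn1. Fn1, fibronectin, stood at 466.9, 755.6, 895.1 and 958.3 FPKM with SALL4-WT and at 218.1, 87.7, 110.2 and 87.4 with SALL4-delN12. Prss23, a protease, stood at 38.1 FPKM with SALL4-WT and 2.29 FPKM with SALL4-delN12 at day 11, and Steap4, a metalloreductase, at 32.6 and 1.71. With 1 library a condition, these differences have no replicate check. Single genes from the lists of liver and muscle markers were also higher with SALL4-delN12. Which cells expressed them, and whether they mark those tissues in these cultures, was not tested. Of 4 liver markers, Apoa1, which has a member, stood at 0.343, 11.6, 14.9 and 11.8 FPKM at days 1, 5, 9 and 11 with SALL4-delN12 and at no more than 0.676 FPKM with SALL4-WT. Ttr stood at 0, 0.164, 0.388 and 1.65 FPKM with SALL4-WT and at 0, 0, 0.294 and 2.68 with SALL4-delN12, higher there only at day 11. Alb and Cyp3a11 stayed under 0.1 FPKM in all 8 libraries. Of 4 muscle markers, Acta1 stood at 5.35, 21.7, 25.4 and 42.4 FPKM with SALL4-delN12 and at 5.97, 2.51, 1.74 and 2.86 FPKM with SALL4-WT. Myod1 went the other way, with up to 4.20 FPKM with SALL4-WT and up to 0.359 FPKM with SALL4-delN12, and Ckm and Myog stayed under 0.2 FPKM. The summed level of the 4 liver markers ran from 0.065 to 1.83 FPKM with SALL4-WT and from 0.343 to 15.2 FPKM with SALL4-delN12, and that of the 4 muscle markers from 4.03 to 6.16 FPKM and from 5.35 to 42.6 FPKM. Their part in the differences was not tested.

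Of 12 PrE genes listed here, most of them named in the study's text, 6 had a member, a share near the 54.4% of all genes. These were Chst15, Cited1, Dab2, Gata6, Klf4 and Lama1. Gata4, Pth1r, Foxa2 and Eva1a had another strong MEF peak, Sox17 only a weaker one and Pitx1 none. Gata6 stood at 5.61, 4.26, 4.23 and 5.36 FPKM with SALL4-WT and at 4.09, 2.52, 3.25 and 7.49 with SALL4-delN12. Of 20 pluripotency genes 5 had a member (Klf2, Klf5, Dnmt3l, Tfcp2l1 and Utf1), and of 16 markers of blood, neurons, liver and muscle 2 had one (Apoa1 and Snap25). Dnmt3l, Utf1 and Snap25 had a member at the promoter and stayed under 1 FPKM in all 8 libraries. All 6 BMP target genes had a member. Their means were 9.25 FPKM or more, and of all 7677 genes with a mean of at least 5 FPKM 6898 had one. Neither culture received BMP4. Id1, Id2, Id3 and Smad6 were lower with SALL4-delN12 at each of the 4 days, and Bambi and Smad7 were higher at each. Id1, an inhibitor of basic helix-loop-helix factors, stood at 569.6, 547.7, 576.5 and 373.6 FPKM with SALL4-WT and at 215.3, 213.7, 223.1 and 261.4 with SALL4-delN12. Bambi, a BMP pseudoreceptor, stood at 2.17, 9.05, 8.95 and 9.79 FPKM with SALL4-WT and at 7.45, 15.9, 9.95 and 10.8 with SALL4-delN12. Of the 10 fibroblast markers with a member, 9 ranged by 1 or more, beside 30.5% of all genes with a member. Among genes with a member and a mean of at least 5 FPKM the share was 31.6%. The exception was Col1a2, whose range of 0.994 was just under the limit of 1 (456.1 to 904.1 FPKM with SALL4-WT and 453.5 to 576.5 with SALL4-delN12).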

How the data were processed

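ATAC-seq, Cut&Tag and bulk RNA-seq of mouse cells were used, with 1 sample per condition, grouped by the labels. For ATAC-seq, the authors trimmed reads (Trim Galore 0.6.4), mapped them to mm10 (Bowtie2 2.4.5), kept short fragments and deposited MACS 1.4.2 peak lists with a score per peak of 10 times the negative log10 of p, from 50 upwards. Cut&Tag replicates were merged by the authors before peak calling. RNA-seq was deposited as FPKM (HISAT2 2.2.1 and StringTie 2.2.1). Read depths are unknown. The FPKM table of the JGES series at day 0 holds delivered factors and was not taken as MEFs.

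Overlaps, motif searches and shares were computed with Python 3.11.15, pandas 2.3.3 and numpy 2.4.6, and the functions were checked on simulated intervals and sequences. Start sites, exons and genes came from the basic GENCODE vM21 annotation, and 200-bp windows from RefSeq's GRCm38, with chromosomes named as in the lists. Of 21924 protein-coding symbols 20467 had an FPKM row. Windows were read for 26455 of 26460 members, since 5 lie on unplaced contigs. Intervals are Wilson intervals at 95% (scipy 1.17.1) and cover counting error only. Differences between RNA-seq libraries are on the log2(FPKM + 1) scale, which understates changes of low genes.

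The members, motifs and gene lists were chosen with earlier results of these data known. Named regions are the 5 promoter and 5 distal members outside chromosome 18 with the highest lowest score over the 9 lists, and the highest member for each of the 3 motifs of largest ratio at promoters and elsewhere. Named genes come from the gene lists or are, among genes with a member, the 5 with the highest mean FPKM, the 5 with the largest range and the 3 largest rises and falls at day 11 with at least 5 FPKM in either form. Other thresholds, promoter widths, overlaps and windows were tried as alternatives. The factor-combination and single-cell tables were not used here.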

Additional observations from a re-analysis of the deposited data

How the results depend on the processing

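No paired analysis was run. The forms could be paired by day, in a model of form with day as a block that uses the days as replicates, but the comparisons fixed here are shares and levels with no test. Without the requirement of 1 of the 8 lists in turn, the member count ranged from 26698 to 29531, beside 26460. With at least 50% of the MEF peak covered in each list it fell to 16992. In that setting the promoter share was 56.0% and the shares with a peak 87.3% (SALL4, SALL4-WT), 71.6% (SALL4, SALL4-delN12), 65.5% (H3K27ac, SALL4-WT) and 86.4% (H3K27ac, SALL4-delN12). With a MEF score of at least 200 these 5 shares were 54.9%, 85.8%, 70.9%, 62.2% and 87.2%. With every MEF peak the promoter share was 50.6% and the H3K27ac shares 58.7% and 84.8%, and both SALL4 shares stayed within their intervals. A promoter of 500 bp to each side gave 46.4% and start sites of protein-coding genes alone 46.8%. The SALL4 shares were 84.3% and 68.8% with at least 50% of the member covered and 84.4% and 68.9% by the centre base, a setting added after seeing the data, and the SALL4-WT share was 84.2% with equal numbers of peaks. Among the shares, the largest move was that of H3K27ac in SALL4-delN12 cells, to 62.5% with equal numbers, where the smaller list sets the number of peaks. The share of genes with a member whose level ranged by 1 or more was 31.6% with a mean of at least 5 FPKM, beside 30.5%, a setting also added after seeing the data.

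For motifs in 50 bp in place of 200 bp, members stood above non-members in 23 of 42 pairs of motif and site class, beside 26. The direction differed in 7 pairs: KLF and GATA at promoters and NRF1, BANP, RFX, CTCF and RUNX elsewhere. The median log2(FPKM + 1) over genes with a member was 3.12, and 2.96 with a pseudocount of 0.1 and up to 3.33 in the other alternatives. Depth limits all shares: a weak site can miss a list because that library was shallow, and with 1 sample a condition the spread between cultures is unknown.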
